A study of Mus musculus with 6 samples.

Results

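The genes described here sense extracellular ATP or make and remove adenosine: P2rx7, P2rx4, Entpd1, Nt5e and Ada. They were taken from a list of 7 purinergic genes, as the probe sets whose platform gene symbol is on the list. A probe set, 1 for each gene, was found for 5 of the 7, among 19938 genes and 23410 probe sets that carry a symbol. The adenosine receptor gene Adora2a and the NAD-consuming ectoenzyme gene Cd38 were not analysed here. Expression was measured on 6 Affymetrix whole-transcript arrays of total RNA from CD4+ CD44+ T cells, which are antigen-experienced T cells. The cells were sorted from draining lymph nodes of male Bcl6_RFP reporter mice aged 8 to 10 weeks, in which red fluorescence reports Bcl6, and all the mice had been immunised with KLH (keyhole limpet haemocyanin) in CFA (complete Freund's adjuvant). The 3 sorted groups, with 2 arrays each, were Cxcr5+Bcl6+, Cxcr5+Bcl6- and Cxcr5-Bcl6- cells. Bcl6 is the repressor that follicular helper T cells require, and Cxcr5 is the chemokine receptor that leads them towards B cells. The series calls the arrays of a group biological replicates. The sources used here do not say whether mice were pooled. The p-values rest on the spread between these arrays, which limma draws towards that of all probe sets. Every group carried the reporter allele and came from immunised mice, so there was no unimmunised or reporter-free control.

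Extracellular ATP is a danger signal released by stressed and activated cells, and it opens P2X cation channels in the membrane. The ectoenzyme CD39, encoded by Entpd1, removes phosphates from ATP and ADP to give AMP, and CD73, encoded by Nt5e, turns AMP into adenosine. Adenosine acts on T cells through receptors that raise cyclic AMP and restrain activation, and adenosine deaminase, encoded by Ada, removes it. The P2X7 channel, encoded by P2rx7, is known to limit follicular helper cells in the gut by promoting their death, and CD39 and CD73 are well known on regulatory T cells.

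Against Cxcr5-Bcl6- cells, P2rx7 and Nt5e were higher and Entpd1 and Ada lower in Cxcr5+Bcl6+ cells. Between the Cxcr5+ groups Nt5e was called and P2rx7 was not. The upstream sequences of these 4 members, which differed most between the groups, are shown. Each is the 250 bases before the first RefSeq start of the gene in build GRCm38.p6, written 5′ to 3′ on the strand of the gene, with matches to any of 4 searched motifs in capitals. The windows are chr5:122643677-122643926 (plus strand), chr9:88327359-88327608 (plus strand), chr19:40612116-40612365 (plus strand) and chr2:163750240-163750489 (minus strand).
P2rx7: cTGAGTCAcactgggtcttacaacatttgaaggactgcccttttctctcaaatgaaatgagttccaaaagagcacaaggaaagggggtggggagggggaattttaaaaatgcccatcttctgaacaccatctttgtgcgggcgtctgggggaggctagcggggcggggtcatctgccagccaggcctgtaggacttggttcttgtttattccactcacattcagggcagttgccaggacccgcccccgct
Nt5e: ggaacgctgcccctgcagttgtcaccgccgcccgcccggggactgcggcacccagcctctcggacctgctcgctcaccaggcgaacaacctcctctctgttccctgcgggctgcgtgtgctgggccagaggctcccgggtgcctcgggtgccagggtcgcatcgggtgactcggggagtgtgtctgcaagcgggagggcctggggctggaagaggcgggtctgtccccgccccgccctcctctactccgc
Entpd1: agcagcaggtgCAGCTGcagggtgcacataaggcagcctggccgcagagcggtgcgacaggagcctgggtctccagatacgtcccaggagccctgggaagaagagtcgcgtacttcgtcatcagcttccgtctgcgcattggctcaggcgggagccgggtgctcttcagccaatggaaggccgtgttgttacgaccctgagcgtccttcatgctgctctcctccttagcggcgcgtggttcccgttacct
Ada: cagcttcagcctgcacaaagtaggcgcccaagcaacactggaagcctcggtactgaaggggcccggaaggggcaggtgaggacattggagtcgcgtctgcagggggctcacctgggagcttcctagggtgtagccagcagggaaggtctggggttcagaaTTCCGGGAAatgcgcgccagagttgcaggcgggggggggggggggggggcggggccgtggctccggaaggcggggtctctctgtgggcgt
The motifs were searched on both strands and no matches overlapped. TTCNNNGAA, the core shared by Bcl6 and STAT sites, was found in the Ada window as TTCCGGGAA, 90 bases before the start, and in 7.02% of 32851 mouse windows of the same length. TGANTCA, the AP-1 site, was found in the P2rx7 window, 249 bases before the start, and in 6.75% of all windows. CAGCTG, an E-box bound by E proteins, was found in the Entpd1 window, 239 bases before the start, and in 4271 of the 32851 windows. TGACGTCA, the cAMP response element, was in none of these 4 windows and in 1.55% of all windows. The Nt5e window held no match and had a G+C share of 72.0%, against a median of 52.4% over all windows. P2rx7 and Entpd1 each have a second RefSeq start, and neither of those windows held a match, nor did the window of P2rx4. A match describes letters and not a bound site.

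Cxcr5+Bcl6+ cells had the highest P2rx7 and Nt5e levels of the 3 groups and the lowest Entpd1 and Ada levels. Against Cxcr5-Bcl6- cells, Entpd1 was lower by at least 1.46 on the log2 scale, a bound because its level in Cxcr5+Bcl6+ cells was not above background, and Nt5e, which encodes the next enzyme of the same pathway, was higher by 1.22. Cxcr5+Bcl6- cells resembled neither group throughout: their P2rx7 level lay 0.22 under that of Cxcr5+Bcl6+ cells, which did not pass the test, and their Entpd1 level lay 0.29 over that of Cxcr5-Bcl6- cells, which did not pass either. Levels are normalised log2 values, and a difference is called where limma's moderated test across all 23410 probe sets gave a Benjamini-Hochberg adjusted p under 0.05. In bulk samples such as these, fewer cells that express a gene and less RNA per cell cannot be told apart.

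**Figure D1:**
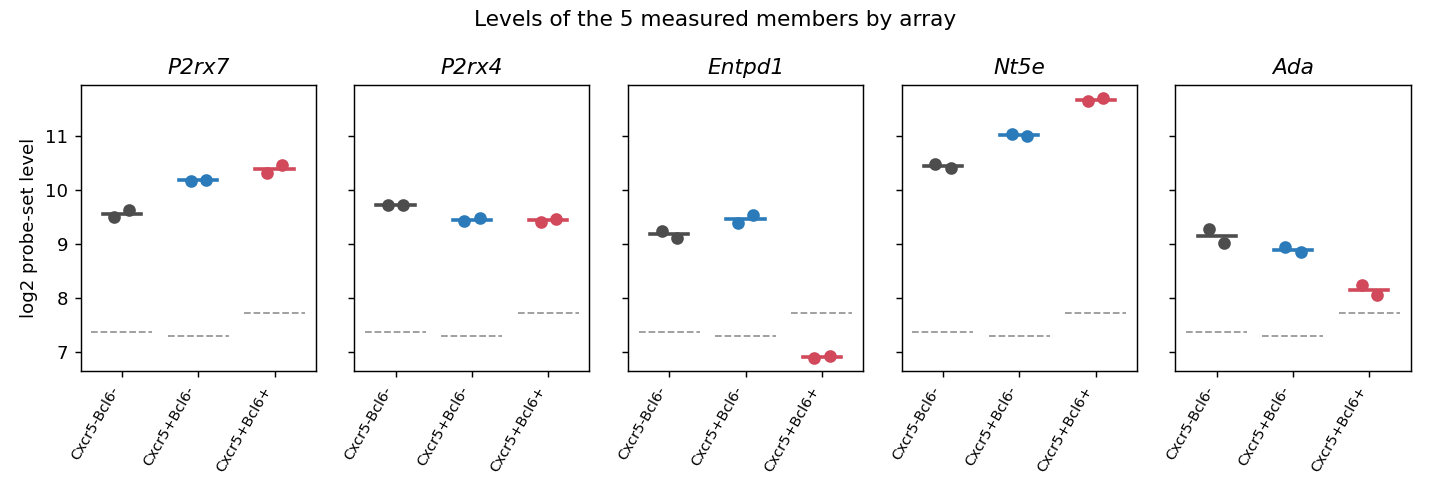
Normalised log2 level of the 5 measured genes on each array (points) with the group mean (bar); the dashed line is the 95th percentile of 1223 olfactory, vomeronasal and trace-amine receptor probe sets in that group. Entpd1 lies under this line on both Cxcr5+Bcl6+ arrays, at 6.89 and 6.93, and the other 4 genes lie above it on every array.

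The sort genes differed in the direction of the labels, with mean Bcl6 levels of 10.31, 10.56 and 11.50 and mean Cxcr5 levels of 7.47, 9.94 and 10.995 in Cxcr5-Bcl6-, Cxcr5+Bcl6- and Cxcr5+Bcl6+ cells. Arrays correlated across probe sets at r = 0.9966 to 0.9985 within groups and 0.971 to 0.992 between groups, where probe sets are not independent replicates. Sensory receptor probe sets (1223, olfactory, vomeronasal and trace-amine) had a median level of 5.63 to 6.02 per array. In Cxcr5+Bcl6+ cells they were shifted by a median of 0.22 from Cxcr5-Bcl6- cells and of 0.30 from Cxcr5+Bcl6- cells, with 423 and 573 of them called higher. A gene is named dim below where both groups lie at or under the 95th percentile of these probe sets, and a small rise of a dim gene has the size of theirs.

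When Cxcr5+Bcl6+ cells were set against Cxcr5-Bcl6- cells, all 5 measured members were called, where 35.3% of all probe sets were called and 49.8% of those calls were rises. P2rx7 and Nt5e were higher and P2rx4, Entpd1 and Ada lower. Between Cxcr5+Bcl6- and Cxcr5-Bcl6- cells 2 of 5 were called, P2rx7 and Nt5e, both higher, where 11.1% of all probe sets were called and 46.8% of those calls were rises. Between Cxcr5+Bcl6+ and Cxcr5+Bcl6- cells 3 of 5 were called, Nt5e higher and Entpd1 and Ada lower, where 26.4% of all probe sets were called and 50.8% of those calls were rises. After each array was centred on its median, that share of rises was 39.6%. The median size of the members' differences, without regard to sign, was 1.004, 0.29 and 0.65 in the same order, and 0.18, 0.10 and 0.16 over all probe sets. The arrays of the 2 groups did not overlap for 5, 5 and 4 members, where this held for 62.6%, 50.1% and 65.8% of all probe sets. The 3 comparisons share arrays and are not independent of each other.

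**Figure D2:**
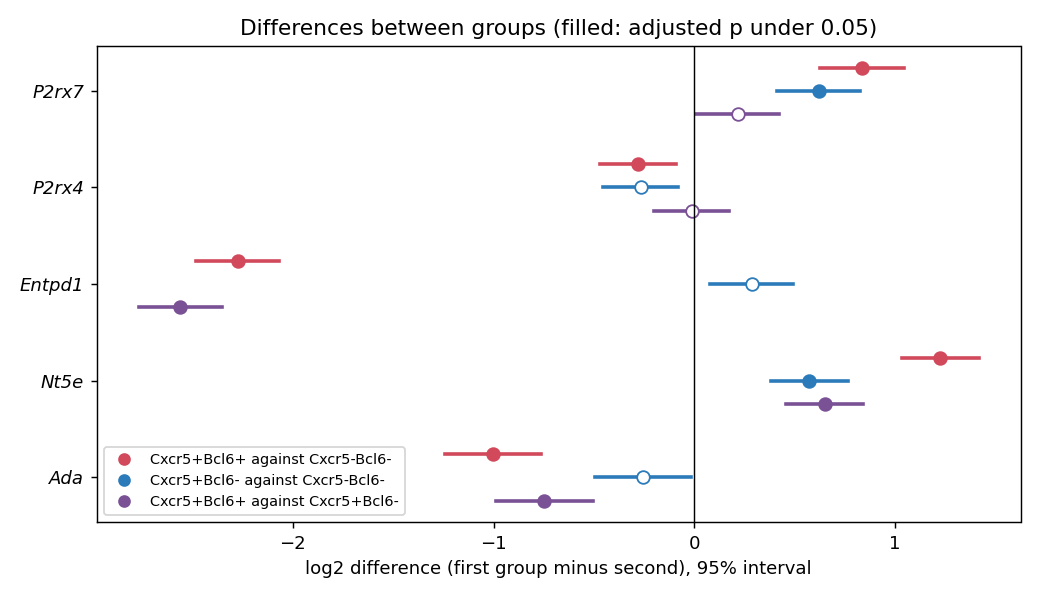
Difference in mean log2 level between groups (first group minus second) for the 5 measured genes, with the 95% interval of limma's moderated test; filled points have an adjusted p under 0.05. Entpd1 lies farthest to the left in both comparisons with Cxcr5+Bcl6+ cells, at measured differences of -2.27 and -2.56. Its level in those cells was under the 95th percentile of the sensory receptor probe sets. Nt5e lies to the right in all 3 comparisons.

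P2rx7 (probe set 10525419) encodes the ATP-gated channel that needs high ATP to open and that can lead to shedding of surface proteins and death of T cells. Its level was 9.49 and 9.63 on the Cxcr5-Bcl6- arrays, 10.17 and 10.19 on the Cxcr5+Bcl6- arrays, and 10.32 and 10.47 on the Cxcr5+Bcl6+ arrays. Both Cxcr5+ groups lay above the Cxcr5-Bcl6- arrays with no overlap. The Cxcr5+Bcl6+ arrays also lay above the Cxcr5+Bcl6- arrays with no overlap, by a smaller distance. Against Cxcr5-Bcl6- cells, P2rx7 was 1.78-fold higher in Cxcr5+Bcl6+ cells (10.40 ± 0.102 against 9.56 ± 0.095, SD, n = 2 each; log2 difference 0.84, SE 0.0945, limma adjusted p = 3.11e-05). In Cxcr5+Bcl6- cells it was 1.54-fold higher than in Cxcr5-Bcl6- cells (10.18 ± 0.0155, SD, n = 2; log2 difference 0.62, limma adjusted p = 0.00141). That difference was larger in size than those of 97.0% of all probe sets. Between the Cxcr5+ groups the difference of 0.22 did not pass (95% interval 0.00859 to 0.423, limma adjusted p = 0.119), although it passed when quantile normalisation was applied again (0.30, limma adjusted p = 0.0314).

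P2rx4 (probe set 10525439) encodes a channel of the same family that opens at lower ATP and is known from T cell activation. In the RefSeq annotation it is the next protein-coding gene downstream of P2rx7 on the same chromosome. Its level was 9.721 and 9.725 on the Cxcr5-Bcl6- arrays, 9.43 and 9.48 on the Cxcr5+Bcl6- arrays, and 9.42 and 9.47 on the Cxcr5+Bcl6+ arrays. The Cxcr5-Bcl6- arrays were the highest and the Cxcr5+ groups overlapped. Set against Cxcr5-Bcl6- cells, Cxcr5+Bcl6+ cells had less P2rx4, by a log2 difference of -0.28 (9.44 ± 0.0329 against 9.72 ± 0.00279, SD, n = 2 each; SE 0.0858, limma adjusted p = 0.0238), opposite in direction to its neighbour P2rx7. The call was lost with only the 4 arrays compared (limma adjusted p = 0.0603), after renewed quantile normalisation (-0.20, limma adjusted p = 0.0711) and without any one array other than Cxcr5+Bcl6+ replicate 2 (limma adjusted p = 0.058 to 0.0786). For Cxcr5+Bcl6- against Cxcr5-Bcl6- cells the difference of -0.27 did not pass (95% interval -0.456 to -0.0791, limma adjusted p = 0.0729), and that of -0.01 between the Cxcr5+ groups did not pass either (95% interval -0.202 to 0.175, limma adjusted p = 0.926).

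The other 5 P2X channel genes, P2rx1, P2rx2, P2rx3, P2rx5 and P2rx6, were dim in every group and were not called in any comparison. Over the 7 P2X genes, the 2 members included, the median difference was 0.13 between Cxcr5+Bcl6+ and Cxcr5-Bcl6- cells, against 0.04 over all probe sets.

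Entpd1 (probe set 10463070), the CD39 gene, stood at 9.24 and 9.12 on the Cxcr5-Bcl6- arrays, 9.39 and 9.54 on the Cxcr5+Bcl6- arrays, and 6.89 and 6.93 on the Cxcr5+Bcl6+ arrays. Both Cxcr5+Bcl6+ arrays lay far below the other 4 arrays. Relative to Cxcr5-Bcl6- cells the measured mean of Cxcr5+Bcl6+ cells differed by -2.27 (6.91 ± 0.0268 against 9.18 ± 0.0842, SD, n = 2 each; SE 0.0944, limma adjusted p = 1.69e-08). Against Cxcr5+Bcl6- cells (9.47 ± 0.109, SD, n = 2) the difference was -2.56 (limma adjusted p = 1.24e-08). The Cxcr5+Bcl6+ level lay under the 95th percentile of the sensory receptor probe sets (7.73), so the fall has only a bound: Entpd1 was at least 2.74-fold lower than in Cxcr5-Bcl6- cells and at least 3.34-fold lower than in Cxcr5+Bcl6- cells when that percentile is taken as the level. The 0.29 by which Cxcr5+Bcl6- exceeded Cxcr5-Bcl6- cells did not pass (95% interval 0.0787 to 0.493, limma adjusted p = 0.0816), although it passed among probe sets at or above the median level (limma adjusted p = 0.0405).

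Regulatory T cells are a known CD39-bearing population, and their markers moved beside Entpd1. Of 8 regulatory T cell markers, all were measured and none was dim. In Cxcr5+Bcl6+ cells 6 were lower against Cxcr5-Bcl6- cells and 7 against Cxcr5+Bcl6- cells. Of all probe sets, 35.3% and 26.4% were called in these comparisons. Foxp3, which encodes the lineage regulator, differed by -2.89 and -2.67 in those comparisons, and Il2ra, the interleukin 2 receptor chain gene, by -3.04 and -2.92. The summed linear level of the list was 42088 and 43741 in Cxcr5-Bcl6- cells, 38620 and 38763 in Cxcr5+Bcl6- cells and 14739 and 15758 in Cxcr5+Bcl6+ cells. Their part in the Entpd1 result was not tested. CD39 is also known on B cells and myeloid cells, whose lists are given below.

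Nt5e (probe set 10587639), the CD73 gene, stood at 10.49 and 10.42 on the Cxcr5-Bcl6- arrays, 11.04 and 11.01 on the Cxcr5+Bcl6- arrays, and 11.64 and 11.71 on the Cxcr5+Bcl6+ arrays. The groups were separate on every array, with Cxcr5+Bcl6- cells between the others. Against Cxcr5-Bcl6- cells, Nt5e was 2.34-fold higher in Cxcr5+Bcl6+ cells (11.68 ± 0.0439 against 10.45 ± 0.0502, SD, n = 2 each; log2 difference 1.22, SE 0.0873, limma adjusted p = 9.25e-07). In Cxcr5+Bcl6- cells it was 1.49-fold higher (11.03 ± 0.0238, SD, n = 2) than in the Cxcr5-Bcl6- group (log2 difference 0.57, limma adjusted p = 0.00139). Between the Cxcr5+ groups it was 1.57-fold higher in Cxcr5+Bcl6+ cells (log2 difference 0.65, limma adjusted p = 0.000234). Nt5e was the only one of the 5 members called in all 3 comparisons, and it kept each call under every alternative run. CD73 is also known on regulatory T cells, whose summed marker level was lowest in Cxcr5+Bcl6+ cells, where Nt5e was highest. The part of those cells in the Nt5e result was not tested.

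Among the other ectonucleotidases, Alpl, which encodes an alkaline phosphatase that can also strip phosphates from nucleotides, was lower in Cxcr5+Bcl6+ cells (7.79 ± 0.0383, SD, n = 2) with differences of -0.76 from Cxcr5-Bcl6- cells (8.55 ± 0.138) and -0.43 from Cxcr5+Bcl6- cells (8.23 ± 0.138) (limma adjusted p = 0.000133 and 0.0093). Entpd2, a surface enzyme that prefers ATP, was dim, and its rises of 0.34 and 0.42 in the same comparisons (limma adjusted p = 0.0114 and 0.00516) were near those of the sensory receptor probe sets. Entpd3, Entpd8 and Enpp3 were not called in any comparison. Of 7 measured ectonucleotidases, Entpd1 and Nt5e included, 4 were called in Cxcr5+Bcl6+ cells against Cxcr5-Bcl6- cells, with 2 rises and 2 falls, and Nt5e alone was called in Cxcr5+Bcl6- cells.

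Ada (probe set 10489391), the adenosine deaminase gene, stood at 9.29 and 9.02 on the Cxcr5-Bcl6- arrays, 8.94 and 8.85 on the Cxcr5+Bcl6- arrays, and 8.24 and 8.06 on the Cxcr5+Bcl6+ arrays. The Cxcr5+Bcl6+ arrays were the lowest and did not overlap the others. Against Cxcr5-Bcl6- cells, Ada was 2.01-fold lower in Cxcr5+Bcl6+ cells (8.15 ± 0.122 against 9.15 ± 0.186, SD, n = 2 each; log2 difference -1.004, SE 0.109, limma adjusted p = 2.29e-05). It was 1.68-fold lower than in Cxcr5+Bcl6- cells (8.90 ± 0.0612, SD, n = 2; log2 difference -0.75, limma adjusted p = 0.000434). For Cxcr5+Bcl6- against Cxcr5-Bcl6- cells the difference of -0.26 did not pass (95% interval -0.497 to -0.0184, limma adjusted p = 0.189). It ranged from -0.39 to -0.13 as each array was left out.

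Other genes of the pathway came from lists of receptors, enzymes, transporters and signalling genes holding 75 genes, of which 63 were measured and 58 were not among the 5 members. Between Cxcr5+Bcl6+ and Cxcr5-Bcl6- cells 11 of these 58 were higher, 14 were lower and 33 did not pass (median difference 0.04, and 0.04 over all probe sets). Between Cxcr5+Bcl6- and Cxcr5-Bcl6- cells 7 were higher, 9 lower and 42 did not pass (median -0.08, and -0.03 over all probe sets). Between the Cxcr5+ groups 11 were higher, 11 lower and 36 did not pass (median 0.08, and 0.05 over all probe sets), and 12 were called in all without Cxcr5+Bcl6- replicate 1. With all 6 arrays, 43.1%, 27.6% and 37.9% of these 58 were called in the order given, where 35.3%, 11.1% and 26.4% of all probe sets were called. The shares over all probe sets also apply to the counts of each gene and marker list. Adora1, Adora2b and Adora3, like Adora2a, were not analysed here, so no adenosine receptor level is given.

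**Figure D3:**
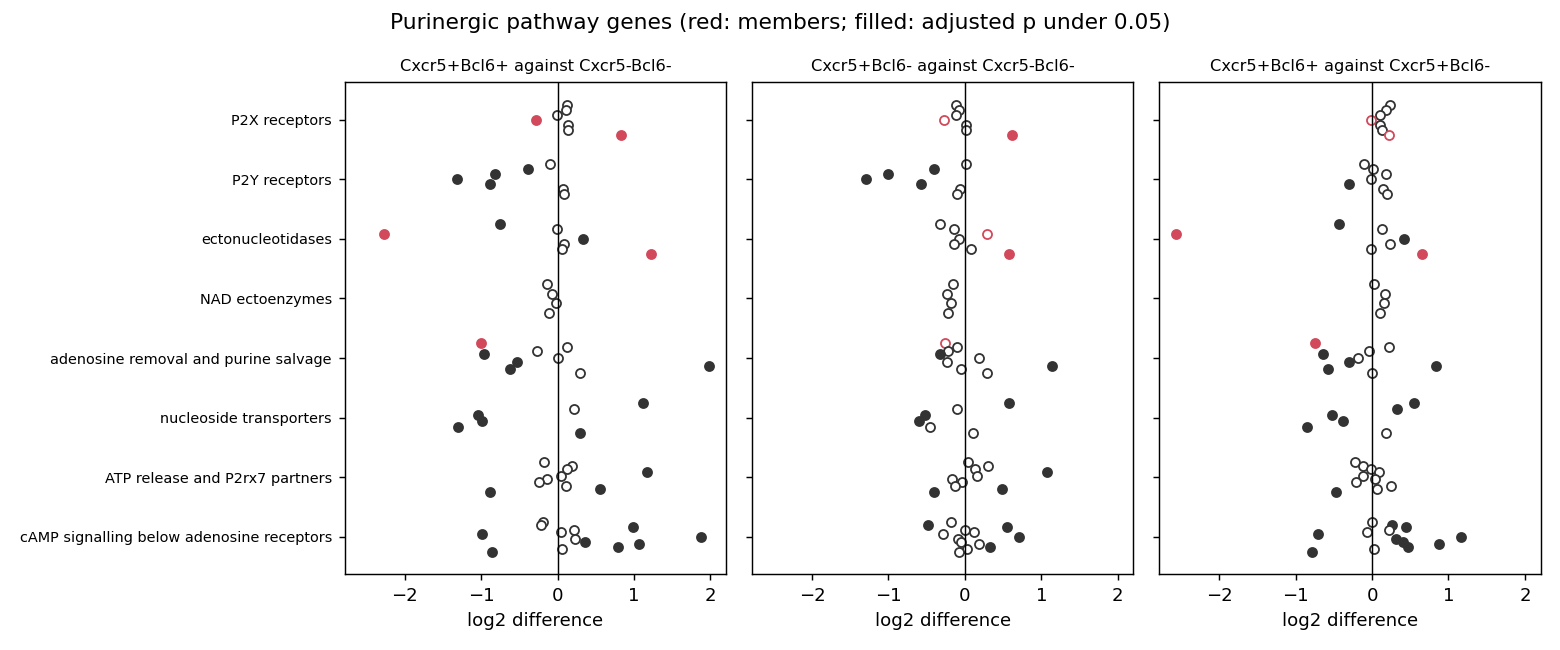
Log2 difference between groups for each measured gene of the 8 pathway lists with data, in 3 panels for the 3 comparisons; red marks the 5 members and filled points have an adjusted p under 0.05. P2Y receptor genes that were called lie to the left of 0 in each panel, whereas the purine salvage and cyclic AMP lists hold called genes on both sides.

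P2Y receptor genes encode G protein coupled receptors for nucleotides and nucleotide sugars, and 4 of the 7 measured were lower in each Cxcr5+ group than in Cxcr5-Bcl6- cells. The other 3, P2ry1, P2ry4 and P2ry6, were not called. The mean level of P2ry14, a receptor gene for UDP-glucose, was 9.23 ± 0.0284 for Cxcr5-Bcl6- arrays, 7.94 ± 0.00491 for Cxcr5+Bcl6- arrays and 7.92 ± 0.163 for Cxcr5+Bcl6+ arrays (SD, n = 2 each). Its differences from Cxcr5-Bcl6- cells were -1.31 for Cxcr5+Bcl6+ and -1.29 for Cxcr5+Bcl6- cells (limma adjusted p = 1.28e-06 and 1.06e-05). P2ry13, an ADP receptor gene, differed by -0.82 and -1.0004 and P2ry2, a receptor gene for ATP and UTP, by -0.88 and -0.57 in the same order. P2ry12, another ADP receptor gene, was dim and differed by -0.39 and -0.40, and the latter call was lost after renewed quantile normalisation (limma adjusted p = 0.0526). Between the Cxcr5+ groups P2ry2 alone was called (-0.31, limma adjusted p = 0.0427).

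Markers of myeloid and dendritic cells, which are known to express several P2Y and P2X receptors, moved beside the P2Y genes. Their summed linear level over 15 markers was 10224 and 10334 in Cxcr5-Bcl6- cells, 3133 and 3166 in Cxcr5+Bcl6- cells and 2559 and 2610 in Cxcr5+Bcl6+ cells. Of the 15, 10 were lower and 1 was higher in each Cxcr5+ group than in Cxcr5-Bcl6- cells. Of all probe sets, 35.3% were called for Cxcr5+Bcl6+ and 11.1% for Cxcr5+Bcl6- cells there. The chemokine gene Ccl22 differed by -3.98 and -3.00 for Cxcr5+Bcl6+ and Cxcr5+Bcl6-. The plasmacytoid dendritic cell gene Siglech differed by -2.88 and -2.27 in that order. The marker that was higher was Lyz2, which was not dim and differed by 1.096 and 1.112. Csf1r, Adgre1, Cd14, Xcr1 and Clec9a were dim, and of these only Clec9a was called, lower in each Cxcr5+ group. The part of myeloid and dendritic cells in the P2Y and P2rx4 results was not tested. Between the Cxcr5+ groups 6 of the 15 were lower in Cxcr5+Bcl6+ cells, 9 did not pass and none was called higher. The largest falls among them were -1.54 for the macrophage gene Mpeg1, -0.97 for Ccl22 and -0.83 for the Fc receptor chain gene Fcer1g. The summed level there was 1.22-fold lower, where Entpd1 was at least 3.34-fold lower. In Cxcr5+Bcl6- against Cxcr5-Bcl6- cells the sum was 3.26-fold lower, and the Entpd1 difference of 0.29 did not pass. The part of these cells in the Entpd1 result was not tested.

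Genes of adenosine removal and purine salvage moved both ways in Cxcr5+Bcl6+ cells. Of 9 measured, Ada included, 1 was higher and 4 lower than in Cxcr5-Bcl6- cells, and the same counts held against Cxcr5+Bcl6- cells. The gene that rose was Dck, which encodes the kinase that salvages deoxynucleosides, with mean levels of 9.19 ± 0.0816 on Cxcr5-Bcl6- arrays, 10.33 ± 0.0103 on Cxcr5+Bcl6- arrays and 11.16 ± 0.0292 on Cxcr5+Bcl6+ arrays (SD, n = 2 each). Over Cxcr5-Bcl6- cells its rise was 1.98 in Cxcr5+Bcl6+ cells and 1.14 in the Cxcr5+Bcl6- group, with 0.83 between the Cxcr5+ groups (limma adjusted p = 2.78e-08, 1.21e-05 and 3.92e-05). Besides Ada, the falls against Cxcr5-Bcl6- cells were Ampd2 (-0.97), an AMP deaminase gene, Hprt (-0.62), which salvages hypoxanthine and guanine, and Aprt (-0.54), which salvages adenine. The falls against Cxcr5+Bcl6- cells were -0.64, -0.57 and -0.30 in that order, and that of Aprt was lost after renewed quantile normalisation (limma adjusted p = 0.0907). Adk, the adenosine kinase gene that removes adenosine by another route, differed by 0.12 and 0.22 in these comparisons and did not pass (limma adjusted p = 0.33 and 0.0873). After renewed quantile normalisation its rise over Cxcr5+Bcl6- cells passed (0.26, limma adjusted p = 0.0377).

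Among 6 nucleoside transporter genes, 2 were higher and 3 lower in Cxcr5+Bcl6+ cells against each other group. Slc28a2, which encodes a concentrative transporter that takes up purine nucleosides with sodium, had mean levels of 9.38 ± 0.11 on Cxcr5-Bcl6- arrays, 9.96 ± 0.0163 on Cxcr5+Bcl6- arrays and 10.51 ± 0.000686 on Cxcr5+Bcl6+ arrays (SD, n = 2 each). Over Cxcr5-Bcl6- cells its rise was 1.12 in Cxcr5+Bcl6+ cells and 0.57 in the Cxcr5+Bcl6- group, with 0.55 between the Cxcr5+ groups (limma adjusted p = 2.35e-06, 0.00183 and 0.000992). The equilibrative transporter genes Slc29a1, Slc29a2 and Slc29a3 were lower in Cxcr5+Bcl6+ cells, with differences of -1.04, -0.99 and -1.31 from Cxcr5-Bcl6- cells and of -0.52, -0.38 and -0.86 from Cxcr5+Bcl6- cells. The first and second of them were also lower in the Cxcr5+Bcl6- group when set against Cxcr5-Bcl6- cells (-0.52 and -0.60). The other two genes of the list, Slc28a3 and Slc29a4, were dim and their calls were lost after renewed quantile normalisation.

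Among 10 genes of ATP release and P2X7 signalling, Casp1, the inflammasome protease gene, was higher in Cxcr5+Bcl6+ (8.92 ± 0.0666) and Cxcr5+Bcl6- cells (8.83 ± 0.00484) than in Cxcr5-Bcl6- cells (7.75 ± 0.303, SD, n = 2 each), by 1.17 and 1.08 (limma adjusted p = 2.04e-05 and 0.000202). Pycard, which encodes the inflammasome adaptor, was higher by 0.56 and 0.49. Slc17a9, which loads ATP into vesicles for release, was lower by -0.88 and -0.41, and the call for Cxcr5+Bcl6- cells was lost after renewed quantile normalisation and after centring (limma adjusted p = 0.0809 and 0.0598). Nlrp3, the inflammasome sensor gene, was dim, and the ATP release channel gene Panx1 was not called (-0.25 and -0.04). Between the Cxcr5+ groups Slc17a9 alone was called (-0.47, limma adjusted p = 0.0115).

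Genes of cyclic AMP signalling, the pathway below the adenosine receptors, moved both ways. Of 13 measured, Cxcr5+Bcl6+ cells had 5 higher and 2 lower against Cxcr5-Bcl6- cells, and 7 higher and 2 lower against Cxcr5+Bcl6- cells. After each array was centred on its median, the last count was 5 higher and 2 lower, as Adcy6 and Pde4b, which encodes a further phosphodiesterase, lost their calls (limma adjusted p = 0.155 and 0.0578). Rises included the phosphodiesterase genes Pde3b (1.88 and 1.16) and Pde7a (1.07 and 0.88), whose products break down cyclic AMP, and Prkacb (0.79 and 0.47), a catalytic subunit of protein kinase A. The falls were Crem (-0.99 and -0.71), a cyclic AMP responsive transcription factor gene, and Prkar2a (-0.86 and -0.79), a regulatory subunit of protein kinase A. Adcy7, an adenylyl cyclase gene, was higher by 0.99 and 0.44. In Cxcr5+Bcl6- against Cxcr5-Bcl6- cells 3 were higher and 1 lower: Pde3b (0.71), Adcy7 (0.55) and Prkacb (0.32) rose and Adcy6 (-0.48) fell. The 4 NAD ectoenzyme genes measured, Bst1, Art1, Art3 and Art4, were not called in any comparison.

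Markers of other cells that a CD4 T cell sort could hold differed between the groups. B cell markers, 9 of 10 measured, had a summed linear level of 1379 and 1408 in Cxcr5-Bcl6- cells, 2354 and 2463 in Cxcr5+Bcl6- cells and 3533 and 3710 in Cxcr5+Bcl6+ cells, the same order as the mean Nt5e and P2rx7 levels. Of the 9, 8 were higher in Cxcr5+Bcl6+ cells when set against Cxcr5-Bcl6- cells, and Cd79a, Ebf1, Cr2 and Blk were dim there. The B cell sum was highest in Cxcr5+Bcl6+ cells, where Entpd1 was lowest. The part of B cells in the Nt5e, P2rx7 and Entpd1 results was not tested. T cell core markers, 9 of 10 measured, summed to 49568 and 50137, 53669 and 54267, and 55348 and 57768 in the same order. Plasma cell markers (6 of 6 measured, including Irf4, Prdm1 and Xbp1, which T cells also use) summed to 16167 and 16280, 12670 and 13059, and 6541 and 6868. CD8 T cell markers (3 of 3) summed to 2361 and 2507, 1663 and 1736, and 822 and 859. Between the Cxcr5+ groups Crtam alone of them was called (-1.99), and Cd8a (-0.13) and Cd8b1 (-0.15) did not pass. Markers of NK and innate-like T cells (6 of 7) summed to 1778 and 1892, 1990 and 2098, and 756 and 806. Of these, Nkg7 differed by -3.08 between the Cxcr5+ groups. Klrk1 (-0.28) was lower and Klrb1c (0.42) higher there, both dim, and the other 3 did not pass.

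**Figure D4:**
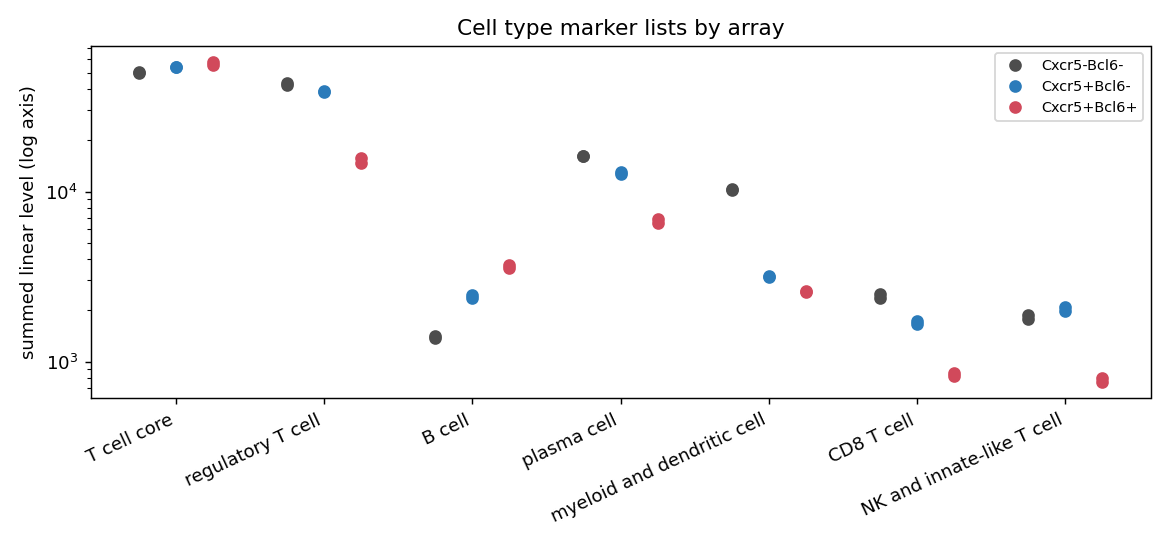
Summed linear level of each cell type marker list on every array, on a log axis, with the 3 sorted groups in colour. Regulatory T cell markers are lowest on the Cxcr5+Bcl6+ arrays (14739 and 15758), B cell markers are highest there (3533 and 3710), and myeloid and dendritic cell markers are highest on the Cxcr5-Bcl6- arrays (10224 and 10334).

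For each member, the 3 genes with the most similar profile were found by the Euclidean distance between log2 levels on the 6 arrays, after each gene was centred on its own mean, among 18506 genes. For Entpd1 they were Penk (distance 0.175), which encodes a precursor of opioid peptides, Itgae (0.273), the integrin chain CD103 of regulatory and tissue-resident T cells, and Il2 (0.28), the interleukin 2 gene. Mean Penk levels were 10.71, 10.89 and 8.40 for Cxcr5-Bcl6-, Cxcr5+Bcl6- and Cxcr5+Bcl6+ cells, and Itgae is also on the regulatory T cell marker list. For P2rx7 they were Cdc14b (0.0956), Unc119b (0.102) and Prkd2 (0.12), a kinase gene active in T cell receptor signalling. For Nt5e they were Rab37 (0.0913), Pou6f1 (0.105) and Tspan32 (0.11), for P2rx4 they were Gnb4 (0.0531), Rasgrp1 (0.0615) and Slc6a9 (0.0659), and for Ada they were Pa2g4 (0.101), Mak16 (0.109) and Dnajb11 (0.109).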

How the data were processed

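The deposited values are log2 levels of 35556 probe sets, which the authors had normalised across arrays. Tools listed in the submitters' processing notes are Affymetrix Expression Console, RMA and GCOS 1.1, with no order or settings. The log2 scale was read from the values, and the sources used here do not give a genome build or detection calls. Symbols came from the platform annotation and were updated through Entrez identifiers for 21698 probe sets. All 23410 probe sets with a symbol were fitted with limma 3.58.1 in R 4.3.3 (group means over 6 arrays, lmFit, eBayes, two-sided, Benjamini-Hochberg adjusted p under 0.05), with 3 residual degrees of freedom. For lists, a gene with several probe sets was read from its brightest. The fit was tested on data simulated with 200 changed probe sets, fewer than were called here, for Cxcr5+Bcl6+ against Cxcr5-Bcl6- cells. It recovered 19.6% of 1.25-fold changes and 97.4% of 1.5-fold changes, so a small difference that did not pass may have been missed. The number of arrays limits the precision.

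The members, lists and motifs were chosen with earlier results of these data known. Named genes were the members, up to 4 called genes per list and comparison with the smallest p, and the 3 most similar genes per member. Other genes, such as those with no call, Aprt, Slc29a4 and the cell type markers singled out, were named after their values were seen. Upstream sequences came from RefSeq (GRCm38.p6), where all 5 measured members matched. Same-numbered arrays deviated from their group means with correlations of 0.26, -0.23 and -0.05, so the numbers were not taken as pairs. Alternatives were eBayes with a trend or robust option, renewed quantile normalisation, centring, 1 probe set per gene, all rows, dropping probe sets under the median or under the 25th percentile, a fit of only the 4 arrays compared, a replicate block, and omission of single arrays. The counts of other pathway genes under these alternatives were added after the data were seen.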

Additional observations from a re-analysis of the deposited data

How the results depend on the processing

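Of 240 values of the members' differences under 16 alternatives, 227 kept their direction and their side of the threshold, 7 lost the call, 3 gained it and 3 changed sign. Leaving out an array of the group not compared gives the same member results as the fit of only the 4 arrays compared. Some of these values are therefore repeats. The sign changed for P2rx4 between the Cxcr5+ groups, where no call was made: 0.0636 after renewed quantile normalisation, and -0.037 to 0.00953 as each array was left out. With probe sets at or above the median level, 5 members were called in Cxcr5+Bcl6+ cells against Cxcr5-Bcl6- cells and 3 against Cxcr5+Bcl6- cells. Of all the probe sets kept, 56.8% and 40.3% were called there. Under that filter, Cxcr5+Bcl6- against Cxcr5-Bcl6- cells gave calls for 4 members in place of 2 and for 22.9% of the probe sets kept. Over all probe sets, that comparison gave 2610 calls, 1579 with all rows and 1317 to 2624 as each array was left out (1317 without Cxcr5+Bcl6- replicate 1 and 1401 without Cxcr5+Bcl6- replicate 2). The comparison of the Cxcr5+ groups gave 6185 calls and 3617 to 6987 as each array was left out (3617 without Cxcr5+Bcl6- replicate 1 and 3820 without Cxcr5+Bcl6- replicate 2). Its calls among other pathway genes were 22, and 12 to 22 as each array was left out. A group left with 1 array is assumed to vary like the others. With the replicate block, 5, 2 and 3 members were called as without it, and 7942, 2411 and 5862 probe sets, so the block changed no member's call. The cause of these changes was not tested, except that leaving out an array leaves fewer samples. Signal near the level of the sensory receptor probe sets limits Entpd1 in Cxcr5+Bcl6+ cells.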
